A study of Mus musculus with 13 samples.

Results

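The 10 genes described here are mouse T cell checkpoint and exhaustion genes, taken by name from the 22048 genes of a whole-liver count table. They are the inhibitory receptors Pdcd1, Ctla4, Lag3, Havcr2 and Tigit, the transcription factor Tox, the ectonucleotidase Entpd1, the costimulatory receptor Tnfrsf9 and the ligands Cd274 and Pdcd1lg2. All 10 were found by Ensembl gene ID, and positions below are those of the whole gene in GRCm38, with reads counted over its exons. RNA-seq counts came from 13 whole-liver libraries in 3 groups, and n counts libraries throughout. Control livers (n = 6, of which 3 were male and 3 female) kept their hepatic stellate cells, which wrap the sinusoids and store vitamin A. Livers of the depleted group (n = 4, 1 male and 3 female) had lost these cells, per the labels. Livers of the hepatectomy group (n = 3, 2 male and 1 female) were taken 72 h after surgical removal of part of the liver, and their labels name no depletion. The means of depletion, the time after it, and the strain, genotype and age of the mice are not given in the sources used here. The labels name no sham operation for the controls.

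Activated T cells put inhibitory receptors on their surface, and these restrain the cell when they meet their ligands. PD-1 (Pdcd1) binds PD-L1 (Cd274) and PD-L2 (Pdcd1lg2), CTLA-4 binds CD80 and CD86, TIGIT binds the poliovirus receptor (Pvr), and LAG-3 binds MHC class II and FGL1. Under lasting stimulation, several of these receptors are held together at the cell surface, a state called exhaustion that depends on the nuclear factor TOX. Most of the 10 genes are also used by cells other than exhausted T cells, among them macrophages, natural killer cells and endothelium.

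Of the 10 genes, 8 had an entry among the RefSeq promoters of build GRCm38.p6, with 10 start sites in all. Lag3 and Tox had none. The 250 bases before the start are shown for the receptor Pdcd1 and its ligands, since Pdcd1 and Pdcd1lg2 had the largest fold changes and Cd274 the highest level of the 10 in depleted livers. Capitals mark the core GGAAA bound by NFAT and other factors, on either strand, so that it also reads TTTCC.
Pdcd1: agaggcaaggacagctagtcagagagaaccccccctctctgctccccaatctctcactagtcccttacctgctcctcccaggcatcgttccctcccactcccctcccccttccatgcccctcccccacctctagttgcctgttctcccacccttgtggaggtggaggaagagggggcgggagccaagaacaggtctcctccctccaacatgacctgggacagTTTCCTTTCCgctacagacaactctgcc
Cd274: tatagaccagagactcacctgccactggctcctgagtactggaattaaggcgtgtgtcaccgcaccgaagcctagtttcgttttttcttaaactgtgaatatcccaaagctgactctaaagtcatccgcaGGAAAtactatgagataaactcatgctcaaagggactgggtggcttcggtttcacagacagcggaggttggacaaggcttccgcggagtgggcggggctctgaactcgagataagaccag
Pdcd1lg2: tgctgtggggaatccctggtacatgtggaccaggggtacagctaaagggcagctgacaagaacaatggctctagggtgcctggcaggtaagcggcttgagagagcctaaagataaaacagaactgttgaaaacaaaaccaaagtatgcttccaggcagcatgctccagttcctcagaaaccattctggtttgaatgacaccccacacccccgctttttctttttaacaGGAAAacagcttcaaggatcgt
The first lies at chr1:94052554-94052803 on the minus strand. The second lies at chr19:29367188-29367437 and the third at chr19:29410669-29410918, both on the plus strand. GGAAA starts at bases -28 and -23 of Pdcd1, at -120 of Cd274 and at -22 of Pdcd1lg2, counted back from the start site. It is a common sequence, present in 55.7% of all 32536 promoter windows of this length. Searches on both strands for the interferon-gamma-activated site TTCNNNGAA (7.04% of all windows), the interferon response core (GAAA, then 2 bases of any kind, then GAAA; 2.98%) and the AP-1 site TGANTCA (6.73%) found no match in these 3 windows. An AP-1 match was present at -200 of Havcr2, and a second start site of Tnfrsf9 held a TTCNNNGAA match at -136 and an AP-1 match at -15. These matches describe the letters of the window and nothing beyond them.

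The libraries held 35360991 to 51008737 counts each, at which 3 counts correspond to between 0.0588 and 0.0848 CPM when scaled to the library's total alone. All other CPM values are also scaled by TMM, a normalization between libraries, which shifts this limit somewhat. Stellate cell markers matched the labels: all 10 listed markers were lower in depleted livers than in controls, and their summed level was 279 to 735 CPM in controls and 14.4 to 62.7 CPM in depleted livers. Depleted replicate 4 held the 62.7 CPM and, although labelled female, 73 counts of Y-linked genes, against 0 to 2 in the other female libraries and 4051 to 7741 in male libraries. The summed level of 10 Kupffer cell and macrophage markers was 89.1 CPM in control replicate 6 and 480 to 678 CPM in the other controls. It was 109 CPM in hepatectomy replicate 2. Nothing in the labels says whether libraries of a group came from separate animals, so p-values measure the spread between these samples.

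In livers depleted of stellate cells, all 10 genes were higher than in control livers. All 10 passed an adjusted p-value of 0.05 in edgeR's quasi-likelihood test with Benjamini-Hochberg adjustment over 13831 genes, where 18.9% of all genes tested were called higher, 15.0% lower and 33.9% in either direction. For 9 of the 10, the lowest depleted library lay above the highest control, which held for 16.5% of all genes tested. The exception was Tox, whose call was lost in 8 of 22 alternative settings. The median log2 difference was 5.26 for the members and -0.03 for all genes tested. Neither these counts nor the median can be set against all genes as they stand, because of Pdcd1, Ctla4, Tigit, Pdcd1lg2 and Tnfrsf9: they passed the filter on low counts only through the 4 depleted libraries, and no control or hepatectomy library was above its limit of 0.247 CPM. Lag3, Tox, Cd274 and Entpd1 were above it in all 13 libraries and Havcr2 in 12, and the log2 differences of these 5 ran from 0.87 to 4.83.

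**Figure D1:**
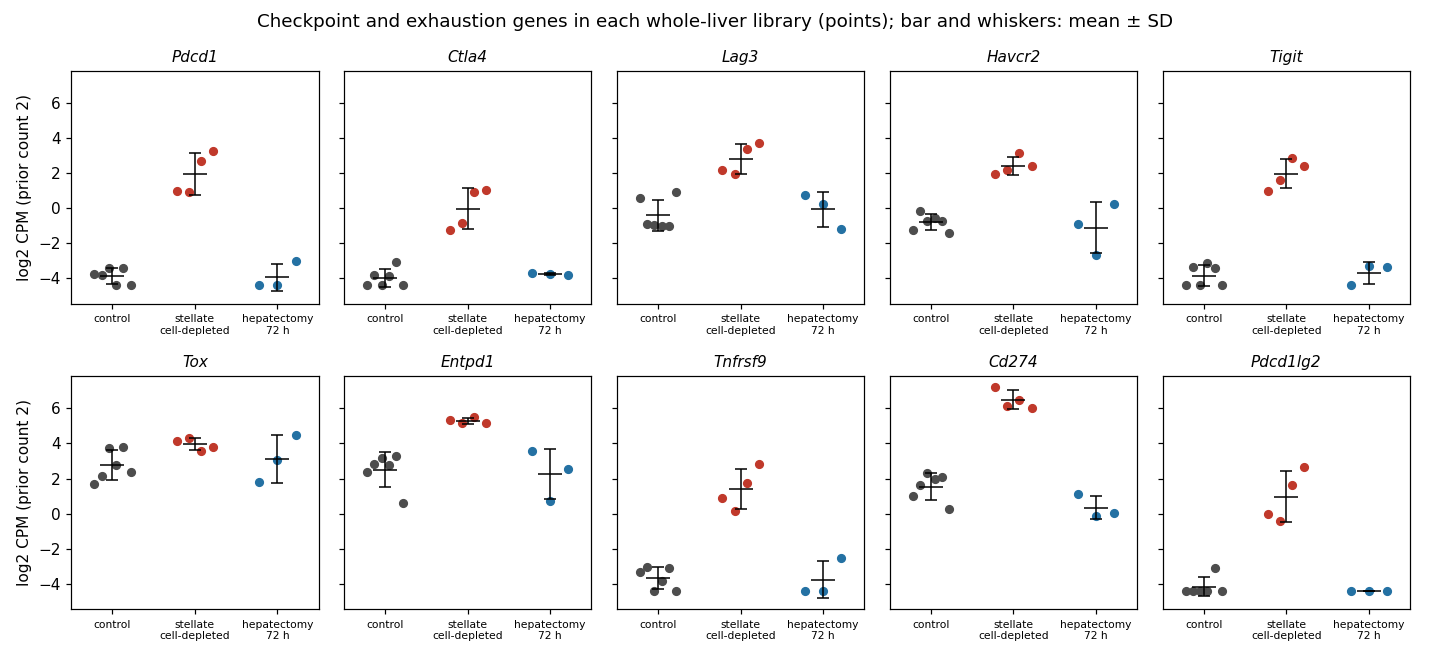
Level of each of the 10 genes in each library, in log2 CPM with a prior count of 2, with points for libraries and bars for the group mean ± SD. Depleted livers lie above every control for each gene but Tox, whose points overlap between groups.

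The receptor PD-1, which recruits phosphatases to the engaged T cell receptor, was almost unread in controls. Pdcd1 (ENSMUSG00000026285.7, chr1:94038305-94052553, minus strand) gave 1, 1, 2, 0, 2 and 0 counts in control replicates 1 to 6 and 0, 0 and 3 in the hepatectomy livers. The 4 depleted livers gave 90, 84, 367 and 429 counts, or 1.93, 1.88, 6.41 and 9.56 CPM. The depleted libraries all lay far above the rest, and replicates 3 and 4 were above replicates 1 and 2. The fitted log2 difference from control came to 7.46 ± 0.78 (SE; edgeR adjusted p = 2.48e-05). Since the controls held 6 counts together, the fold is better read from pooled counts, where it was 201 (exact 95% interval 92.1 to 549, counting error only). Without depleted replicate 3 the log2 difference was 6.71.

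TIGIT, a receptor of T and natural killer cells that competes with the activating CD226 for its ligand, followed the same division. Tigit (ENSMUSG00000071552.4, chr16:43648867-43664146, minus strand) had 0, 2, 0, 3, 2 and 0 counts in controls, against 91, 135, 412 and 234 in depleted livers (1.95, 3.02, 7.2 and 5.21 CPM). The groups did not overlap, and depleted replicate 3 was highest. Its log2 difference was 7.13 ± 0.69 (edgeR adjusted p = 1.40e-05), and the pooled ratio was 155 (74.9 to 387). Leaving out replicate 3 gave 6.39.

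CTLA-4, which takes CD80 and CD86 from the costimulatory receptor CD28, had the lowest level per kilobase of the 10 in depleted livers. Ctla4 (ENSMUSG00000026011.11, chr1:60887000-60915832, plus strand) counts were 0, 1, 0, 1, 3 and 0 in controls and 18, 23, 106 and 89 in depleted livers (0.386, 0.515, 1.85 and 1.98 CPM). Again no depleted library fell among the controls, and replicates 3 and 4 were highest. The log2 difference was 5.68 ± 0.76 (edgeR adjusted p = 0.000126), with a pooled ratio of 58.7 (24.8 to 182). The fitted difference was 5.03 without depleted replicate 3 and 6.68 without control replicate 5.

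LAG-3, a CD4-like receptor, was measurable in every liver. Lag3 (ENSMUSG00000030124.2, chr6:124904361-124911705, minus strand) stood at 1.47, 0.494, 0.472, 0.449, 0.445 and 1.83 CPM in control replicates 1 to 6 and at 4.58, 3.90, 10.3 and 13.4 CPM in depleted livers. Controls 1 and 6 were well above the other 4 controls, yet still below every depleted library. The log2 difference was 3.73 ± 0.45 (edgeR adjusted p = 6.69e-05).

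TIM-3 (Havcr2, ENSMUSG00000020399.12, chr11:46454935-46481255, plus strand), found on exhausted T cells but also on macrophages and dendritic cells, was at 0.375, 0.840, 0.567, 0.629, 0.562 and 0.330 CPM in controls. Depleted livers had 3.88, 4.59, 8.89 and 5.23 CPM. The libraries of the groups did not overlap, and depleted replicate 3 was highest. Its log2 difference was 3.33 ± 0.47 (edgeR adjusted p = 0.000187), and 2.67 without that library.

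TOX, the nuclear factor needed to hold T cells in the exhausted state, differed least. Tox (ENSMUSG00000041272.9, chr4:6686353-6991557, minus strand) was at 3.21, 4.32, 13.5, 6.85, 14.1 and 5.16 CPM in control replicates 1 to 6 and at 17.5, 20.1, 11.6 and 14.1 CPM in depleted livers. The male depleted liver (replicate 3) lay below the controls 3 and 5 but above every male control (replicates 1, 2 and 6), and all 3 male controls lay below all 3 female controls. The log2 difference was 0.87 ± 0.30 in the fit with sex as a covariate (edgeR adjusted p = 0.0408). This call did not hold without the sex covariate (1.01, adjusted p = 0.137), in females alone (0.58, adjusted p = 0.208), or when control replicate 1, 2 or 4 or depleted replicate 1, 2 or 3 was left out (0.50 to 0.93, adjusted p up to 0.329, the last without depleted replicate 3). Tox also shares exon bases with an antisense gene, Gm11802, and whether the counting used strand is not given in the sources used here.

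CD39 (Entpd1), an enzyme that breaks down extracellular ATP on endothelium, macrophages and exhausted or regulatory T cells, was well expressed in all groups. Entpd1 (ENSMUSG00000048120.14, chr19:40612366-40741602, plus strand) was at 5.17, 6.99, 9.14, 6.76, 9.57 and 1.47 CPM in controls and at 40.9, 36.6, 45.4 and 35.4 CPM in depleted livers. The depleted libraries were close to each other, while control replicate 6 was far below the other controls. The log2 difference was 2.58 ± 0.48 (edgeR adjusted p = 0.00152). Control replicate 6 is also the control with the lowest macrophage and endothelial marker sums. Its stellate, hepatocyte, dendritic, natural killer and B cell sums were the lowest of the controls too. The part of any of these cells in the Entpd1 level was not tested. Without that library the call held.

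4-1BB (Tnfrsf9, ENSMUSG00000028965.11, chr4:150914562-150946102, plus strand), a receptor that appears on recently stimulated T and natural killer cells and promotes their survival, had 2, 3, 0, 1, 3 and 0 counts in controls. Depleted livers had 86, 48, 186 and 313 counts (1.84, 1.08, 3.25 and 6.97 CPM). All depleted libraries were above all others, with replicate 4 highest. Its log2 difference was 6.27 ± 0.84 (edgeR adjusted p = 0.000127), and the pooled ratio was 87.5 (45.8 to 192). Without replicate 4 the fitted difference was 5.68.

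PD-L1 (Cd274), which many cell types display under interferon, was the most abundant of the 10 in depleted livers. Cd274 (ENSMUSG00000016496.7, chr19:29367455-29388095, plus strand) was at 1.93, 3.09, 4.84, 3.93, 4.24 and 1.14 CPM in controls and at 151, 70.1, 90.7 and 66.2 CPM in depleted livers. The lowest depleted library was more than an order of magnitude above the highest control, and replicate 1 was the highest. The log2 difference was 4.83 ± 0.39 (edgeR adjusted p = 6.05e-06), a fitted fold of 28.5. An antisense gene, AC119228.1, shares exon bases with Cd274, so part of these reads could be its own if strand was not used in counting.

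PD-L2 (Pdcd1lg2, ENSMUSG00000016498.9, chr19:29410919-29471161, plus strand), the second PD-1 ligand, is known mainly from dendritic cells and macrophages. Its gene follows that of Cd274 on the same strand of chromosome 19. Pdcd1lg2 had 0 counts in 5 controls and 3 in the sixth (replicate 5), against 44, 31, 172 and 286 in depleted livers (0.943, 0.694, 3.0 and 6.37 CPM). Here replicates 3 and 4 were highest, while Cd274 was highest in replicate 1. The log2 difference was 7.46 ± 1.02 (edgeR adjusted p = 0.000303), and the pooled ratio was 221 (75.2 to 1075). The fitted difference was 6.74 without depleted replicate 3 and 6.59 without replicate 4. Without control replicate 5, which held all 3 control counts, a fitted value is no measure of size, and the call held.

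**Figure D2:**
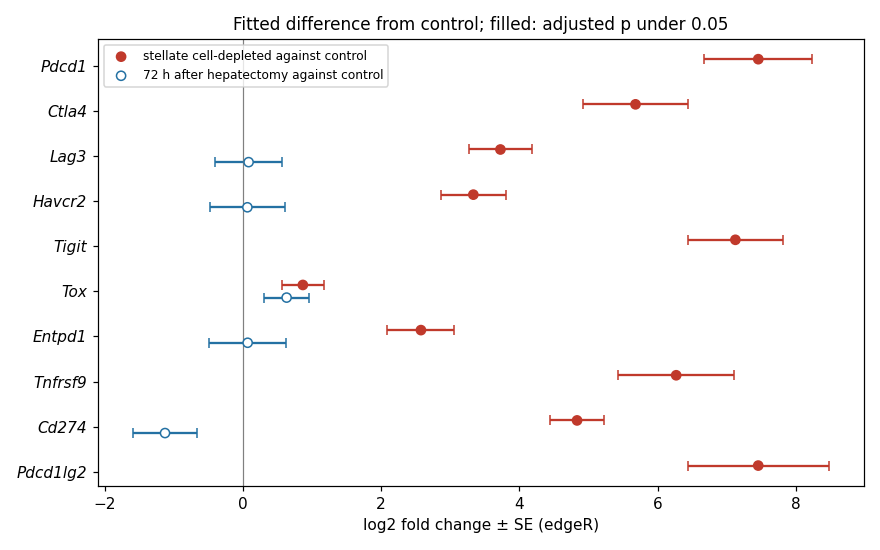
Fitted log2 fold change from control with its SE for each gene, in depleted livers (all 10 genes) and in livers 72 h after hepatectomy (the 5 genes above the low-count limit in some control or hepatectomy library). All 10 depleted values are positive, from 0.87 for Tox to 7.46 for Pdcd1, and no hepatectomy value passed the test.

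Divided by exon length, levels can be compared between genes. In depleted livers Cd274 stood first at 26.1 ± 10.9 CPM per kilobase (SD, n = 4), followed by Entpd1 at 7.09 ± 0.81. Tigit (4.51 ± 2.43), Lag3 (3.82 ± 2.18), Pdcd1 (2.56 ± 1.94), Tox (2.08 ± 0.49), Havcr2 (2.08 ± 0.82), Pdcd1lg2 (1.67 ± 1.6) and Tnfrsf9 (1.21 ± 0.96) came next on this scale, each within the spread of its neighbour. Ctla4 was last, at 0.508 ± 0.365, which also overlaps Tnfrsf9. Controls had another order: Entpd1 (1.17 ± 0.53 CPM per kilobase, n = 6), Tox (1.03 ± 0.63) and Cd274 (0.882 ± 0.394) overlapped at the top, Lag3 (0.408 ± 0.296) and Havcr2 (0.202 ± 0.068) followed, and the other 5 were near 0.

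The livers taken after hepatectomy showed these transcripts in liver whose stellate markers summed to 302 to 582 CPM, against 279 to 735 CPM in controls. By edgeR, 0 of the 10 genes were called against control, where 8.42% of all genes tested were called in either direction and 6.06% higher. DESeq2 and limma-voom also called 0, and 1 member had an unadjusted p under 0.05. That gene was Cd274, at 2.09, 0.870 and 0.973 CPM after hepatectomy, with a log2 difference of -1.13 ± 0.47 (edgeR adjusted p = 0.164). Its value was -1.73 without hepatectomy replicate 1 (adjusted p = 0.0558), -0.68 without replicate 3 and -2.14 in females alone. The hepatectomy values overlapped the controls. Both comparisons use the same control livers.

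Entpd1 was at 11.7, 1.63 and 5.79 CPM after hepatectomy, with the low value in replicate 2. That library had the lowest macrophage, endothelial, stellate and hepatocyte marker sums of its group. Tox ranged widely there, at 3.38 and 8.17 CPM in the male livers and 22.4 CPM in the female, with a log2 difference of 0.63 ± 0.33 (edgeR adjusted p = 0.258). Lag3 (1.65, 1.12 and 0.399 CPM) and Havcr2 (0.500, 0.112 and 1.12 CPM) lay across the control range, with log2 differences of 0.08 ± 0.49 and 0.07 ± 0.54. Tnfrsf9 had 0, 0 and 5 counts, Tigit 0, 2 and 2, and Ctla4 1 in each. Pdcd1lg2 had 0 in all 3. For these low genes and Pdcd1 no fold is given.

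Set directly against the hepatectomy livers, depleted livers were higher in 9 of 10 genes by edgeR (13.3% of all genes tested were called higher), and the same 9 had ranges that did not overlap (18.1% of all genes tested). Of the 9, as against control, 5 had passed the low-count filter only through the depleted libraries. Cd274 differed by 5.96 ± 0.57 on the log2 scale (edgeR adjusted p = 7.33e-05) and by 6.55 without hepatectomy replicate 1. Lag3 differed by 3.64 ± 0.60, Havcr2 by 3.27 ± 0.61 and Entpd1 by 2.51 ± 0.64. Havcr2 moved to 2.65 without depleted replicate 3 and to 4.36 without hepatectomy replicate 3, and Entpd1 to 3.44 without hepatectomy replicate 1. For the low genes the ratio of pooled counts is given with its exact 95% interval, for counting error only. It was 183 (62.6 to 891) for Pdcd1 and 71.8 (30.6 to 222) for Tnfrsf9, where hepatectomy replicate 3 held all 3 and all 5 counts of its group, so that no ratio exists without it. For Tigit it was 124 (48.1 to 455) on 4 counts and for Ctla4 44.6 (15.1 to 218) on 3. Pdcd1lg2, with 0 hepatectomy counts, was at least 100.8-fold higher against a floor of 3 counts over the group, and the exact lower 95% limit of its ratio was 81.7. Tox differed by 0.23 ± 0.36 (edgeR adjusted p = 0.682). Without depleted replicate 3 the calls of Ctla4, Pdcd1lg2 and Entpd1 were lost, and without hepatectomy replicate 3 that of Entpd1. In females alone, with a single hepatectomy liver assumed to vary like the others, 5 of the 10 were called, and the calls of Pdcd1, Ctla4, Pdcd1lg2 and Tnfrsf9 were lost.

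Transcripts of T cells rose beside the checkpoint genes. Of 16 listed T cell genes that passed the filter, 15 were higher in depleted livers than in controls and 0 lower. Of the 15, 3 were above the low-count limit in depleted livers alone. Cd3d, Cd3e and Cd3g, the invariant chains of the T cell receptor complex, rose by 5.10 ± 0.59, 4.63 ± 0.51 and 4.38 ± 0.37 on the log2 scale. Cd8a, of cytotoxic T cells, rose by 6.36 ± 0.37 (edgeR adjusted p = 6.21e-07) and Cd4 by 2.38 ± 0.32. The summed T cell markers were 69.4, 68.5, 145 and 159 CPM in depleted replicates 1 to 4, against 9.03 to 14.9 in controls and 14.9 to 18.2 after hepatectomy. In that sum, Zap70 was not called (log2 difference 0.31 ± 0.33). It averaged 6.63 CPM in controls, 7.96 CPM in depleted livers and 9.41 CPM after hepatectomy. The Cd3 genes alone summed to 14.5 to 41.9 CPM in depleted livers, 0.643 to 1.73 in controls and 0.365 to 1.27 after hepatectomy. Replicates 3 and 4, which were the higher pair for Pdcd1, Ctla4, Lag3, Havcr2, Tigit, Tnfrsf9 and Pdcd1lg2, were also the higher pair in both sums. In a whole organ, more cells of a type and more RNA per cell cannot be told apart.

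**Figure D3:**
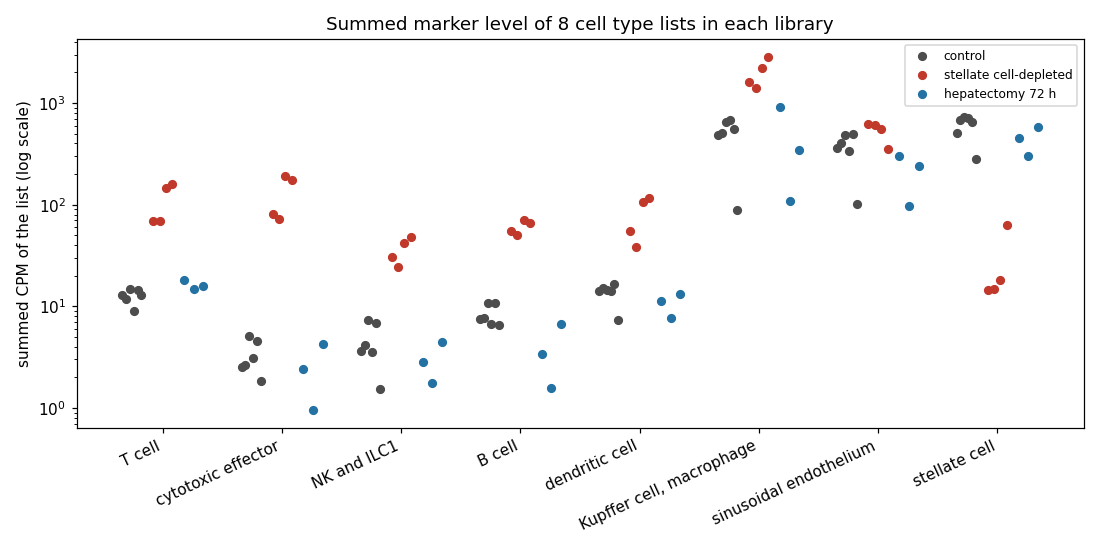
Summed level of listed marker genes per library, in CPM on a logarithmic axis, for each cell type and group. T cell markers in depleted livers (68.5 to 159 CPM) lie above all controls, and stellate markers (14.4 to 62.7 CPM) below all controls.

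Levels were therefore also read per 100 counts of Cd3d, Cd3e and Cd3g in the same library, as a description with no test. Pdcd1 had 12.8 to 22.8 per 100 Cd3 counts in depleted livers and 0 to 3.85 in controls. Pooled over livers this was 19.2 (95% interval 18.0 to 20.6) and 2.41 (0.876 to 5.32), the latter resting on 6 counts. Tigit (12.5 to 22.8 against 0 to 10.3) and Pdcd1lg2 (4.79 to 15.2 against 0 to 4.05) also lay above the controls without overlap. These 3 genes had 0 to 3 counts in each control library, so a single count moves a control ratio far, and for Pdcd1lg2 the ranges were close. The hepatectomy livers gave 0, 0 and 5.88 for Pdcd1, 0, 15.4 and 3.92 for Tigit and 0 in all 3 for Pdcd1lg2. The 15.4 of Tigit, from 2 counts over 13 Cd3 counts, lay within the depleted range.

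Ctla4 (2.57 to 5.85 per 100 Cd3 counts in depleted livers, 0 to 4.05 in controls) and Tnfrsf9 (7.42 to 16.7, and 0 to 11.5) overlapped on this scale. Lag3 was at 26.9 to 32.5 per 100 Cd3 counts in depleted livers (28.4 to 43.5 per 100 counts of Cd2, Cd5 and Lck), within the 25.7 to 254 of controls. Cd274 (158 to 1008, and 158 to 603) and Entpd1 (84.7 to 273, and 204 to 1089) overlapped too. Pooled over livers, Lag3 was at 31.3 (95% interval 29.6 to 33.2) in depleted livers and 78.3 (64.6 to 94.8) in controls. Pooled Entpd1 was at 153.5 (148 to 159) and 651 (570 to 747), and Cd274 at 364.5 (353 to 376) and 320 (277 to 370). These intervals cover counting error only. Tox lay below the controls without overlap, at 33.7 to 138 per 100 Cd3 counts in depleted livers and 375 to 1052 in controls. Havcr2 was also below the controls (12.5 to 31.7 against 32.4 to 131). Both genes rose in level (log2 differences 0.87 and 3.33), but less than the Cd3 genes (4.38 to 5.10). Pooled controls held 1948 Tox counts against 249 Cd3 counts. Neither ratio is a level per T cell, since the reads of these genes are not assigned to T cells. When Cd2, Cd5 and Lck replaced the Cd3 genes, Pdcd1, Tigit and Pdcd1lg2 stayed above and Tox below the controls, while Havcr2 overlapped (16.9 to 33.5 against 24.5 to 113). After hepatectomy, Tox had 460 to 2238, Havcr2 30.8 to 88.2, Lag3 31.4 to 308 and Entpd1 446 to 1588 per 100 Cd3 counts. The control ratios rest on 24 to 74 Cd3 counts per library and those after hepatectomy on 13 to 51.

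**Figure D4:**
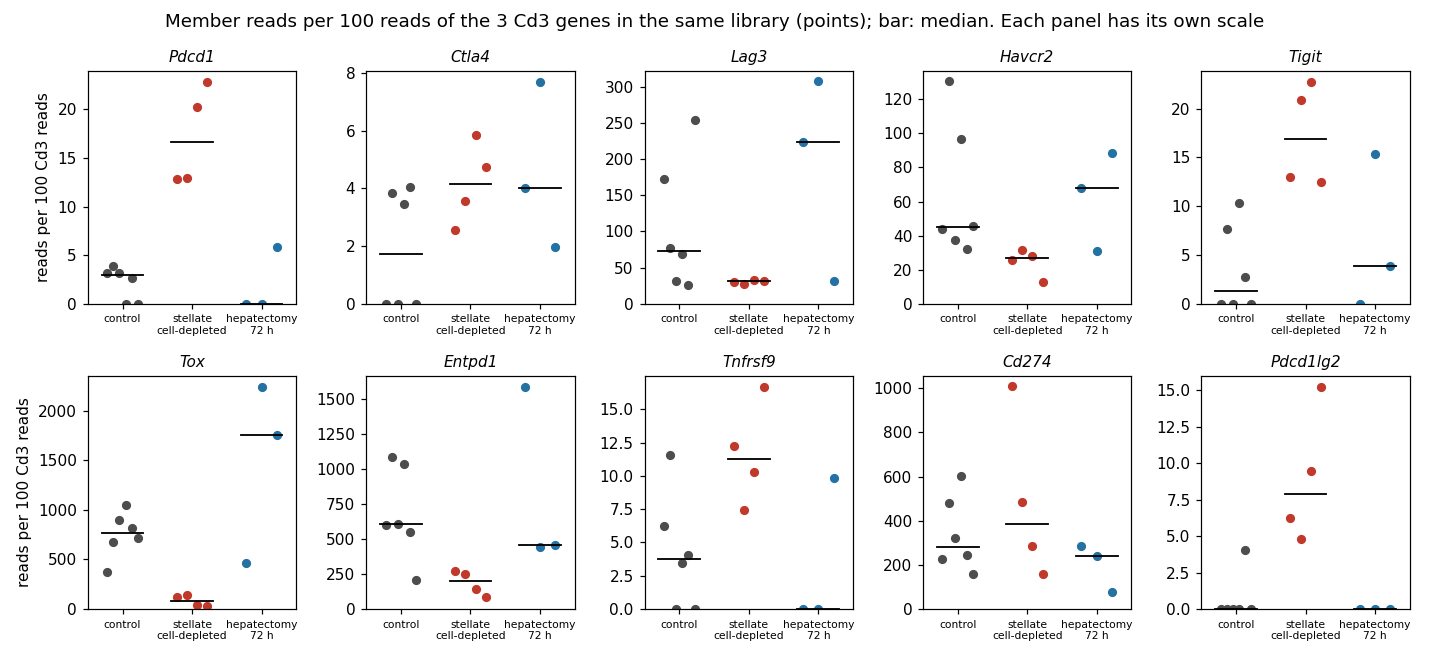
Counts of each gene per 100 counts of Cd3d, Cd3e and Cd3g in the same library, with points for libraries and bars for group medians. Pdcd1, Tigit and Pdcd1lg2 in depleted livers lie above every control, and Tox (33.7 to 138) lies below every control (375 to 1052). The reads counted are those of the whole liver, whichever cells they came from.

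In a list of partners of these receptors that also holds the costimulatory pair Icos and Icosl, 9 of 17 that passed the filter were higher in depleted livers and 1 lower. Of the 9, Cd96 was above the low-count limit in depleted livers alone. Those of antigen-presenting cells rose: Cd80 by 3.07 ± 0.40 and Cd86 by 2.44 ± 0.46 on the log2 scale, both ligands of CTLA-4 and CD28. Cd28 itself rose by 4.18 ± 0.61. Of the TIGIT axis, Cd226 (3.07 ± 0.38) and Cd96 (3.98 ± 0.38), which are receptors, rose. The ligands of TIGIT did not pass the test: Pvr had a log2 difference of -0.47 ± 0.18 (edgeR adjusted p = 0.0641) and Nectin2 one of 0.14 ± 0.19. Lgals9, a proposed TIM-3 ligand, fell by 0.43 ± 0.15 (edgeR adjusted p = 0.0440), and Ceacam1, another, had a value of -0.31 ± 0.28. Lgals3, of the same list, rose by 3.42 ± 0.48 (edgeR adjusted p = 0.000231). Nt5e, the enzyme that acts after CD39 in making adenosine, had -0.61 ± 0.30 (edgeR adjusted p = 0.130).

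Fgl1, a hepatocyte-secreted ligand of LAG-3, differed from the receptors in its pattern. It was at 202, 405, 362, 303, 312 and 203 CPM in controls, at 1447, 1259, 1884 and 1774 CPM in depleted livers and at 3233, 3884 and 2114 CPM after hepatectomy. No library of one group fell within the range of another, and the hepatectomy livers were highest. Against control, Fgl1 rose by 2.43 ± 0.24 on the log2 scale in depleted livers (edgeR adjusted p = 1.61e-05) and by 3.33 ± 0.26 after hepatectomy (edgeR adjusted p = 2.69e-05). It was lower in depleted than in hepatectomy livers, by -0.90 ± 0.30 (edgeR adjusted p = 0.0445, where 10.1% of all genes tested were called lower). It was the one gene of the partner list called after hepatectomy.

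In a list of other inhibitory receptors that also holds a few ligands, 15 of 18 genes were higher and 0 lower in depleted livers, among them Btla (3.78 ± 0.43), Vsir (2.82 ± 0.34) and Cd5 (5.09 ± 0.62). Of the 15, 2 were above the low-count limit in depleted livers alone, Cd5 among them. Of listed costimulatory genes of the TNF receptor family and the ligand Cd40lg, 6 of 7 that passed the filter rose, with Cd40 at 3.64 ± 0.54 and Cd27 at 4.21 ± 0.71, and 3 of the 6, Cd40lg among them, were above that limit in depleted livers alone. Of transcription factors and surface genes of exhausted and memory T cells, 18 of 23 rose and 0 fell, including Prdm1 (3.27 ± 0.34) and Eomes (5.07 ± 0.57), and Eomes was 1 of 2 above the limit in depleted livers alone. Tcf7, the factor of stem-like and memory T cells, had a log2 difference of -0.22 ± 0.25 (edgeR adjusted p = 0.535). None of these lists had a gene called after hepatectomy.

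Regulatory T cells carry CTLA-4 and TIGIT at rest, and 6 of 7 of their listed genes, Ctla4 included, rose in depleted livers. Foxp3, their defining factor, was at 0.0899 to 0.375 CPM in controls and 0.246 to 1.29 CPM in depleted livers, ranges that overlapped, with a log2 difference of 1.66 ± 0.57 (edgeR adjusted p = 0.0400). Il2ra rose by 3.75 ± 0.67. All 10 cytotoxic effector genes rose, with Gzmb at 5.77 ± 0.53 and Ccl5 at 5.27 ± 0.41. Ifng, the cytokine that raises PD-L1 in many cells, had 0 to 3 counts in controls and 15 to 145 in depleted livers (log2 difference 6.12 ± 0.87). Of 12 genes of interferon-gamma signalling 11 rose, among them Irf1 by 2.02 ± 0.13. The low-count limit was passed in depleted livers alone by 2 of the 6 regulatory, 3 of the 10 cytotoxic (Ifng included) and 1 of the 11 interferon-gamma genes.

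Markers of other cells that can carry these transcripts moved too. Kupffer cell and macrophage genes rose in 6 of 10 cases, monocyte and neutrophil genes in 9 of 9, dendritic cell genes in 7 of 10 with 1 lower, natural killer and innate lymphoid genes in 8 of 8, and B cell genes in 8 of 8. Of these, 1 monocyte and neutrophil gene and 2 natural killer genes were above the low-count limit in depleted livers alone. In the Kupffer cell and macrophage list, Clec4f and Vsig4 had negative log2 differences, -3.00 ± 1.26 and -0.88 ± 0.60 (edgeR adjusted p = 0.0872 and 0.287). The median of Clec4f was 2.81 CPM in depleted livers and 119 CPM in controls. Their summed levels in depleted livers were 1406 to 2868 CPM for macrophages (89.1 to 678 in controls), 225 to 573 CPM for monocytes and neutrophils (2.55 to 9.88) and 38.5 to 115 CPM for dendritic cells (7.38 to 16.6). Natural killer markers summed to 24.2 to 48.4 CPM (1.53 to 7.34) and B cell markers to 50.5 to 70.0 CPM (6.51 to 10.8). After hepatectomy the same sums were 109 to 915, 20.7 to 36.4, 7.72 to 13.2, 1.74 to 4.49 and 1.57 to 6.73 CPM, and 5 of 9 monocyte and neutrophil genes were called higher than in control. In controls, 1 monocyte and neutrophil gene, 1 regulatory T cell gene and 1 cytotoxic effector gene were at 0 in all libraries, and no listed T cell, macrophage, dendritic, natural killer or B cell gene was. Sinusoidal endothelial genes rose in 1 of 8 cases and hepatocyte genes in 0 of 7. The part of each cell type in the levels of Cd274, Pdcd1lg2, Havcr2, Entpd1 and Tox was not tested.

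The variation of each gene between libraries of 1 group was compared with that of the genes with a mean log2 CPM of at least 0, as a description over 13 libraries with group means removed. Entpd1 was followed most closely by P2ry12 (Pearson r = 0.99), Kcna2 (0.99) and Lair1 (0.99). Havcr2 was most like Slamf7 (r = 0.92), Hpgds (0.91) and Rragd (0.90). Pdcd1 was most like Thy1 (r = 0.93), Gsn (0.92) and Apobec3 (0.91), and Lag3 most like Pllp (0.95), Rilpl2 (0.95) and Slc25a1 (0.95). Cd274 was nearest to Map4k4 (r = 0.94), Srgap2 (0.94) and Mob1a (0.93), and Tox to Cyp2c37 (0.91), Ehhadh (0.91) and Sulf2 (0.90). The nearest gene was Adora2a for Ctla4 (r = 0.88), Slc10a2 for Tigit (0.84), Sh3bgrl3 for Pdcd1lg2 (0.89) and Ltbp3 for Tnfrsf9 (0.91). With group means removed, the points still share library, depth and sex, and for the genes near 0 in 9 libraries they rest on the 4 depleted livers.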

How the data were processed

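The authors deposited raw read counts per gene for 13 whole-liver libraries. Per the labels' protocols, RNA was extracted with TRIzol, stranded TruSeq mRNA libraries were made from 500 ng each, and the pool ran on 2 lanes. STAR 2.7.1a, SAMtools 1.15.1, featureCounts 1.6.4 and build mm10 are named in the submitters' processing notes. Strand and multi-mapping settings are not given in the sources used here. Symbols came from GENCODE M21 (GRCm38) for 21741 of 22048 IDs. Of those matched, 99.94% overlapped the same gene's position.

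Counts were filtered with filterByExpr (13831 genes kept), scaled by TMM and tested with the two-sided quasi-likelihood F-test of edgeR 4.0.16 in R 4.3.3, with group and sex over all 13 libraries. P-values were Benjamini-Hochberg adjusted over all genes tested, with a threshold of 0.05. Scripts were tested on simulated data. CPM is TMM-scaled unless stated. A prior count of 2 entered log2 CPM. Intervals of pooled counts are exact at 95% and cover counting error only. Alternatives were other scalings, no filter, DESeq2 1.42.0, limma-voom (limma 3.58.1), no sex covariate, only 2 groups, females only, a replicate block and each library left out.

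The members and lists were chosen with earlier results of these data known. Beyond the 10 members, the rule for named genes took from each list at most 3 genes per direction by adjusted p, the direct binding partners, and a few fixed T cell genes. It took the 3 genes most like each member by correlation with group means removed, among genes with a mean log2 CPM of at least 0. Zap70, Clec4f, Vsig4 and Lgals3 were named outside this rule.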

Additional observations from a re-analysis of the deposited data

Results flagged for a closer look

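Of 20 sets of 4 to 6 libraries examined for a lone extreme library, 2 held one. Chance gives about 1 in 20 for continuous values, a rate that does not apply to these near-zero counts. In both it was control replicate 5. For Ctla4 that library stood at 0.0702 CPM, and its gap to the next control was 0.648 of the controls' range. For Pdcd1lg2 it also stood at 0.0702 CPM, while the other 5 controls were at 0, so that the gap was the whole range. Each value rests on 3 counts and lies below every depleted library, and both calls against control held without this library.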

How the results depend on the processing

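Against control, 9 of the 10 genes kept their call in depleted livers under all 22 alternatives, and Tox kept it in 14. The genes called in depleted livers numbered 4692 (2614 higher, 2078 lower), 2726 in females only and 2960 to 4928 with 1 library left out, lowest without depleted replicate 3. After hepatectomy 1164 genes were called (838 higher, 326 lower). That count was 2192 with library size alone, 1939 with DESeq2, 632 with the replicate block, 90 in females only and 483 to 1458 with 1 library left out (483 without hepatectomy replicate 2, 692 without control replicate 1, 742 without control replicate 2). Between depleted and hepatectomy livers 3236 genes were called (1837 higher, 1399 lower), 2105 from those 2 groups only, 1263 in females only and 1709 to 3850 with 1 library left out, lowest without depleted replicate 3. The members called there fell from 9 to 5 in females only and ranged from 6 to 9 with 1 library left out. Library size alone moved the median of all genes by -0.24 after hepatectomy and changed the splits to 626 higher and 1566 lower after hepatectomy, 2884 and 1471 in depleted livers, and 3102 and 610 between them. The cause of these changes was not tested, other than that females only and single omissions leave fewer libraries.

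Values that changed sign were uncalled throughout. After hepatectomy, library size alone gave Lag3 -0.12, Havcr2 -0.16 and Entpd1 -0.16, limma-voom gave Havcr2 -0.34 and Entpd1 -0.28, and the fit without sex gave Entpd1 -0.039. Females only gave Lag3 -0.18 and Entpd1 -0.54 there, and Tox -0.39 between depleted and hepatectomy livers. With 1 library left out, Lag3 ran from -0.17 to 0.33, Havcr2 from -1.0 to 0.56 and Entpd1 from -0.89 to 0.48 after hepatectomy, and Tox from -0.16 to 0.60 between depleted and hepatectomy livers. Per 100 counts of Cd2, Cd5 and Lck, the median of Lag3 in depleted livers was 38.3, against 31.3 per 100 Cd3 counts. For hepatectomy against control, folds of the 5 genes under the low-count limit in both groups were not computed under the alternatives.

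The replicate block gave Havcr2 -0.26 and Entpd1 -0.39 after hepatectomy and changed no call on a member. The labels do not say whether equal replicate numbers pair the samples, and so few pairs cannot settle it. After group and sex, same-numbered control and depleted libraries correlated at -0.10 to 0.42 over 4 pairs (mean 0.12, other numbers -0.02). Control and hepatectomy ran from -0.19 to 0.08 over 3 (mean -0.05, other numbers 0.01). Depleted and hepatectomy ran from 0.04 to 0.27 over 3 (mean 0.16, other numbers -0.05).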
